A study of Mus musculus with 4 samples.

Results

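The replication-dependent histone genes supply the bulk of histone protein in S phase. They were taken as the Ensembl genes of the count table whose older mouse symbol begins with Hist1h, Hist2h, Hist3h or Hist4h and whose estimated count was above 5 in at least 2 of the 4 libraries. Of 70 such symbols in the annotation, 67 had a row in the table and 58 met the count rule, out of 43496 Ensembl genes in all. They fell into 5 H1, 17 H2A, 12 H2B, 12 H3 and 12 H4 genes, of which 48 lay on chromosome 13, 7 on chromosome 3, 2 on chromosome 11 and 1 on chromosome 6. The annotation calls 2 of them, Hist1h2aj and Hist1h2al, pseudogenes. At the edge of the rule, Hist1h4b just entered with estimated counts of 5.50 and 4.88 with MERVL shRNA and 5.19 and 0.560 with random shRNA. Hist1h2bb stayed just outside with 4.57 and 4.16 with MERVL shRNA and 10.4 and 1.09 with random shRNA.

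RNA-seq compared pluripotent mouse embryonic stem cells of the line E14 after shRNA against the endogenous retrovirus MERVL (MuERVL in the labels) with the same cells after a random shRNA, with 2 libraries each. Both groups were labelled wild type, of strain 12910la, grew on gelatin in serum with LIF, and were transfected with 1000 ng of pSuper puro plasmid. Puromycin at 1 µg/ml was added after 24 h and kept for 4 days, so both groups are pools of selected cells that carry this vector. No label tells whether the 2 replicates of a group came from separate cultures, and the p-values then cover only the spread between libraries, possibly a technical one. In bulk RNA, fewer cells with a transcript and less of it per cell cannot be told apart.

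H3 and H4 form the tetramer at the centre of the nucleosome, H2A with H2B forms the flanking dimers, and H1 is the linker histone. Their genes sit in clusters and mostly lack introns, and their mRNAs as a rule end in a stem-loop and not in a poly(A) tail. The stem-loop-binding protein Slbp and the U7 small nuclear RNP direct that cut, and Npat, a target of cyclin E and Cdk2, drives transcription at S phase entry. Some of these genes also make polyadenylated transcripts that run past the stem-loop. Per the labels, libraries were made from total RNA with an mRNA-seq kit and random primers, and no label says how mRNA was selected, so the levels below need not measure stem-loop-ended and polyadenylated forms alike.

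The stem-loop is shown first because it splits the classes. A 16-base sequence, GG, any 2 bases, CTTTT, any base, A, any 3 bases and CC, whose ends form a stem of 6 base pairs around a loop of 4 bases, was searched on the sense strand of the annotated transcripts. It was present in 38 of 58 genes (65.5%), and in 55 of 55450 annotated genes overall (0.0992%). All 28 stem-loops of the H1, H2A, H2B and H3 genes had the first stem arm GGCTCT. None of the 10 found in H4 genes did: 8 had GGCCCT and 2 had GGTCCT. The loop read TTTC in 32 genes, TTTA in 4 and TTTT in 2, the pair being Hist1h4i and Hist2h4. Below, capitals mark the 16 bases, with 5 flanking bases on each side in lower case, as DNA letters of the GENCODE M21 transcripts (GRCm38), from a linker gene, 2 H3 genes with different loops and 3 H4 genes with different stems or loops.
Hist1h1c: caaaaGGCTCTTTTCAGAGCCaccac
Hist2h3c1: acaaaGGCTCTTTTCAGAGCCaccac
Hist1h3e: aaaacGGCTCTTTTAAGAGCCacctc
Hist1h4h: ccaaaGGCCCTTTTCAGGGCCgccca
Hist1h4j: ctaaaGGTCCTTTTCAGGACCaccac
Hist1h4i: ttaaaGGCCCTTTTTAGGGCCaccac

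Promoters split along the same class line. RefSeq promoters (GRCm38.p6, 250 bases before to 50 after the start) matched 51 of 58 genes and were searched on both strands for 5 motifs, none of which contains another; GGTCCG was added after the first promoters had been read. CCAAT, the box bound by NF-Y, was found in 40 of 40 promoters of the H1, H2A, H2B and H3 genes but in 2 of 11 H4 promoters, against 37.4% of all RefSeq promoters. GGTCCG, the core of the element that Hinfp binds in H4 genes, was found in 10 of 11 H4 promoters and 1 of 10 H3 promoters, in no other class, and in 8.25% of all promoters. AAACACA, the box of H1 genes, was found in 4 of 5 H1 promoters and 7.18% of all. The octamer ATTTGCAT was found in 5 of 15 H2A and 2 of 10 H2B promoters, against 1.74% of all. TATAAA was found in 29 of 51 promoters, against 13.6% of all. Divergent H2A and H2B genes share a window, so a motif between them counts for both.

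The promoters of the genes that lead the results are printed with these motifs in capitals. That of Hist1h4i spans chr13:22041313-22041612 (minus strand), with GGTCCG beginning 46 bases before the start and TATAAA 137 bases before it. That of Hist1h1c spans chr13:23738557-23738856 (plus strand), with CCAAT 54 and AAACACA 112 bases before the start. The third is that of Hist1h2ac, chr13:23683910-23684209 (minus strand). It covers the stretch from which Hist1h2bc, the most abundant gene of the set, starts in the other direction, and it holds 3 CCAAT boxes in either orientation, an octamer and TATAAA.
Hist1h4i: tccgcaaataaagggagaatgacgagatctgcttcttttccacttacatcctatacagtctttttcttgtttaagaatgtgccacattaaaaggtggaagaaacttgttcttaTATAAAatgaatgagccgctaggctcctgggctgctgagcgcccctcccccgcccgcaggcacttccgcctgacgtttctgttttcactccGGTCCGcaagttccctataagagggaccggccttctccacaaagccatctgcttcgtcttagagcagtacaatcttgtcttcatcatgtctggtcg
Hist1h1c: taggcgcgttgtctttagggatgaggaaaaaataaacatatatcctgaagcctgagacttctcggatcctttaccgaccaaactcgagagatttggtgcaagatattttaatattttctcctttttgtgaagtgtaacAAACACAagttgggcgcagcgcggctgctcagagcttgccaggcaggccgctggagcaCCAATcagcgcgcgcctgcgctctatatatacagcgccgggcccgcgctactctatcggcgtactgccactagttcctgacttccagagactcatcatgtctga
Hist1h2ac: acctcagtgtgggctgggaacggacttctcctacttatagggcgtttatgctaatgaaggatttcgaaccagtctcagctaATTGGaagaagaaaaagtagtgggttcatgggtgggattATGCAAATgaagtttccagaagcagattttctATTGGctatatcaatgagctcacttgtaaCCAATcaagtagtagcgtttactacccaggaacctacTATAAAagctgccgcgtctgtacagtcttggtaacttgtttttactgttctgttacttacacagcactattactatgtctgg

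Libraries held 16067854 and 14570056 estimated counts with MERVL shRNA and 15496921 and 11628887 with random shRNA. RNA of the targeted element, summed over its copies, stood at 1163 and 573.8 CPM with MERVL shRNA and at 4662 and 1434 CPM with random shRNA. The random shRNA pair was the more spread one: over all genes tested the median gap within the pair on log2(CPM + 1) was 0.12 with MERVL shRNA and 0.28 with random shRNA. Defining markers of embryonic stem cells were present in every library (8 markers, summed 8583 and 9303 CPM with MERVL shRNA and 7227 and 8363 CPM with random shRNA). Of these 8, 6 were higher and 0 lower without overlap between groups (23.0% and 21.8% of all genes), and edgeR and DESeq2 called 0. Of 13 feeder or fibroblast markers, 5 were at 0 in every library. The 13 summed to 35.4 and 31.4 CPM with MERVL shRNA and 53.4 and 58.7 CPM with random shRNA. Of the 6 tested, 4 were lower and 1 higher without overlap between groups (21.8% and 23.0% of all genes). No marker passed the edgeR test, and DESeq2 called 1 (1.16% of all genes). Thy1, the most abundant, had 8.67 and 6.88 CPM with MERVL shRNA and 23.1 and 28.8 CPM with random shRNA.

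Histone RNA of the set was scarce in these libraries. The 58 genes together held 163.0 and 147.3 CPM with MERVL shRNA, against 226.8 and 131.4 CPM with random shRNA, from summed estimated counts of 2593, 2076, 3555 and 1567 in the same order. The random shRNA values lay on either side of both MERVL shRNA values. Random shRNA replicate 1 exceeded replicate 2 in 44 of the 58 genes and 1.73-fold in the sum. Only a pair of genes, Hist1h2bc and Hist1h1c, carried about as much as all others: the other 56 held 51.4% of the summed CPM. Over the set the median level was 1.04 CPM, or 1.46 CPM per kb of exon.

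**Figure D1:**
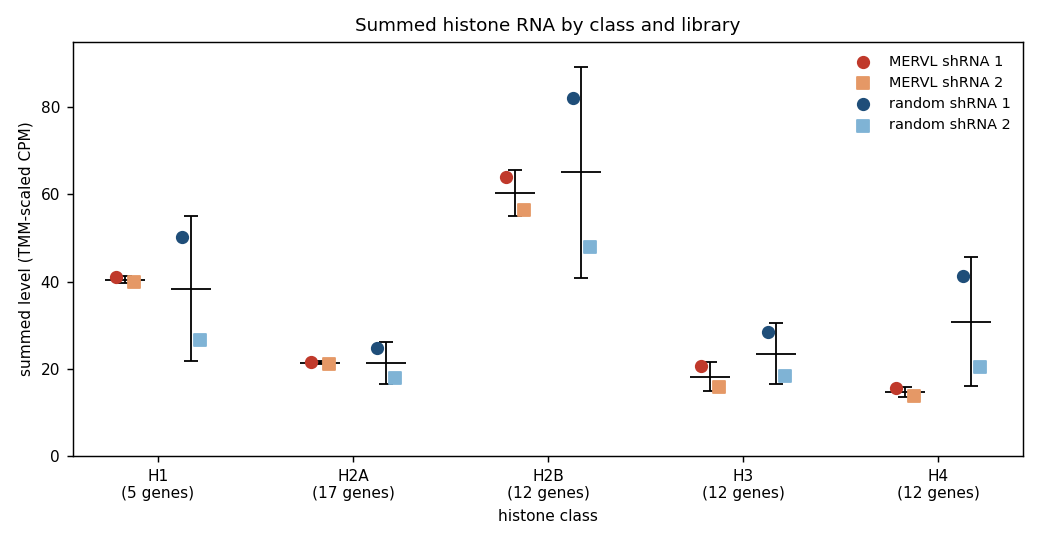
Summed TMM-scaled CPM of the genes of each histone class (x axis, with the number of genes) in each library, MERVL shRNA left and random shRNA right; horizontal lines are group means and bars are ± 1 SD (n = 2 each). In H1, H2A, H2B and H3 at least 1 MERVL shRNA library lies between the random shRNA libraries, whereas in H4 both MERVL shRNA libraries (15.6 and 13.9 CPM) lie below both random shRNA libraries (41.3 and 20.4 CPM).

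No histone gene passed the edgeR quasi-likelihood test at an adjusted p of 0.05. Enough counts for that test were present in 43 of the 58 genes, and 1 of the 43, Hist1h4i, had an unadjusted p under 0.05, where 6.35% of all genes had one in the lower direction. Over all genes, 1 of 15735 was called (0.00636%), so the absence of calls does not set the histone genes apart. The median log2 fold change, MERVL shRNA over random shRNA, was -0.26 over the 43 genes, with 16 above 0 and 27 below, and 0.0035 over all genes tested. Both MERVL shRNA libraries lay above both random shRNA libraries in 6 of the 43 (23.0% of all genes did) and below both in 9 (21.8% of all genes did). In 28 the groups overlapped.

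**Figure D2:**
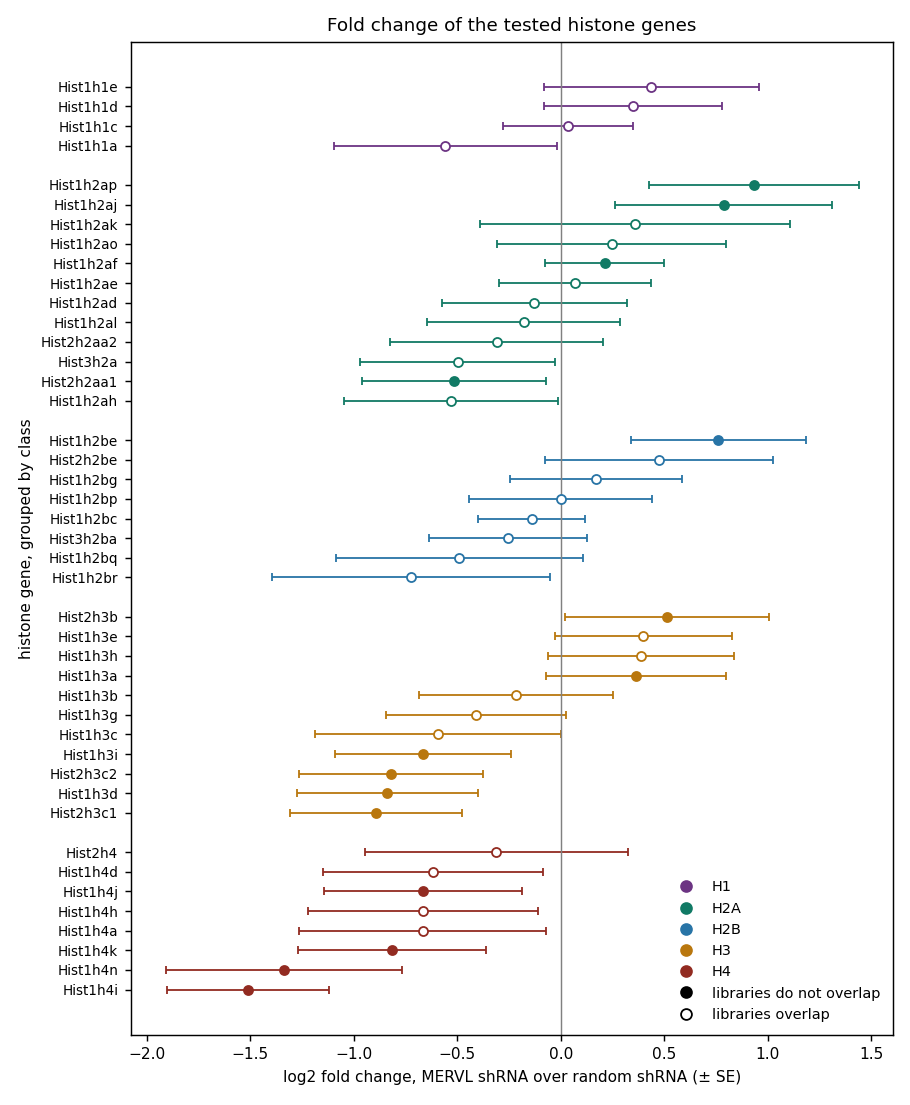
Log2 fold change (x axis, MERVL shRNA over random shRNA, bars ± SE from the edgeR fit on 2 libraries a group) of the 43 histone genes tested, grouped by class down the page; filled points are genes whose groups do not overlap. All 8 H4 genes lie below 0, with medians of 0.19 in H1, -0.03 in H2A, -0.07 in H2B, -0.41 in H3 and -0.67 in H4. Most of the 8 share sequence with Hist1h4i, so their signs may not be independent.

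H4 was the class with the lowest fold changes. Its 12 genes summed to 15.6 and 13.9 CPM with MERVL shRNA, against 41.3 and 20.4 CPM with random shRNA, means of 14.7 ± 1.20 and 30.8 ± 14.7 CPM (SD, n = 2 each) and a log2 ratio of -1.06. All 8 H4 genes tested had a negative fold change, with a median of -0.67. In 4 of the 8, both MERVL shRNA libraries were below both random shRNA libraries, as in 21.8% of all genes. Of the H4 genes with too few counts for the test, Hist1h4b, Hist1h4f and Hist4h4 had higher means with MERVL shRNA. These were 0.346, 0.567 and 0.559 CPM, against 0.189, 0.325 and 0.507 CPM with random shRNA. Hist1h4m had a lower mean, 0.405 against 0.911 CPM. Apart from Hist2h4, the other tested H4 genes share 50-base stretches of transcript with Hist1h4i. Their reads may have been split, so their signs may not be independent. Hist1h4i alone carried much of the sum: without it, H4 stood at 9.24 and 7.33 CPM with MERVL shRNA and 15.9 and 9.27 CPM with random shRNA, a log2 ratio of -0.60. The groups still did not overlap, with the higher MERVL shRNA value and the lower random shRNA value under 0.1 CPM apart.

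Hist1h4i, a single-exon H4 gene at chr13:22040636-22041362 on the minus strand, had 6.35 and 6.56 CPM with MERVL shRNA and 25.4 and 11.2 CPM with random shRNA. Its estimated counts were 101 and 92.5 with MERVL shRNA and 398 and 133 with random shRNA. Both MERVL shRNA libraries were below both random shRNA libraries, which themselves differed 2.28-fold. The log2 fold change was -1.51 ± 0.39 (SE), with an adjusted p of 0.329 in edgeR and an unadjusted p of 0.0073; 265 of 15735 genes (1.68%) had a lower fold change. It was called lower by DESeq2 (adjusted p = 0.0222, where 1.16% of genes were called), in edgeR with no filter on low counts (adjusted p = 2.35e-06, 2.86% of genes called) and by limma on the deposited scores (adjusted p = 0.034, 19.9% of genes called). Over all alternatives its adjusted p ran from 1.38e-25 without random shRNA replicate 2 (log2 fold change -1.96, 29.3% of genes called) to 1 without MERVL shRNA replicate 2. It also passed without random shRNA replicate 1, at a log2 fold change of -0.79 (adjusted p = 0.00374, 14.3% of genes called).

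How many other histone genes were called turned on the random shRNA pair. Without random shRNA replicate 2, edgeR called 14 of 54 histone genes lower and 1 higher, where 13.7% and 15.6% of all genes were called. Without random shRNA replicate 1 it called 1 of 47 lower, Hist1h4i, and 2 higher, Hist1h1b and Hist1h1c, where 7.32% and 7.03% of all genes were called. On the deposited scores, limma called 4 of 58 lower and 5 higher, beside 10.1% and 9.72% of all genes. Hist1h4i was among the genes called lower in each of these. On the scores, the low-count H4 genes Hist1h4b and Hist1h4f were among the 5 called higher.

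The Hist1h4i transcript runs 330 bases past its stem-loop, and 28.9% of its 50-base windows occur in another annotated gene. No other annotated exon overlaps it. Random shRNA replicate 1 was the highest library and replicate 2 the next in Hist1h4i and in the summed 2-cell-like markers alike. The 7 such markers in the table, genes such as Zscan4c and Zscan4d that mark the rare cells of a culture resembling the 2-cell embryo, summed to 178.5 and 102.1 CPM with MERVL shRNA and to 846.0 and 220.9 CPM with random shRNA. All 7 had a negative log2 fold change, and in 6 both MERVL shRNA libraries were lower than both random shRNA libraries (21.8% of all genes). None passed the edgeR test, 6 had an unadjusted p under 0.05 (6.35% of all genes in that direction), DESeq2 called 3 (1.16% of all genes), and none was at 0 in every library. With random shRNA replicate 1 dropped, Hist1h4i was still lower with MERVL shRNA, at -0.79 on the log2 scale instead of -1.51. The part of the 2-cell-like markers in the Hist1h4i result was not tested.

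The other H4 genes were near 1 to 4 CPM or lower. Hist1h4k had 2.07 and 1.22 CPM with MERVL shRNA and 3.53 and 2.23 CPM with random shRNA, a log2 fold change of -0.81 ± 0.45 (adjusted p = 0.497, edgeR), with no overlap. Hist1h4a had 1.26 and 1.19 CPM with MERVL shRNA and 2.96 and 0.932 CPM with random shRNA. Hist1h4h had 1.04 and 1.17 CPM with MERVL shRNA and 2.40 and 0.932 CPM with random shRNA. In both, random shRNA replicate 1 was the highest library and replicate 2 the lowest, and both had a log2 fold change of -0.67. Hist2h4, on chromosome 3, had the H4 fold change nearest to 0, -0.31 ± 0.64, with 0.314 and 0.709 CPM with MERVL shRNA and 0.447 and 0.839 CPM with random shRNA. Hist1h4m and Hist1h4n, which share over 85% of their windows with other genes, are better read as a sum. It was 1.19 and 0.568 CPM with MERVL shRNA and 2.93 and 1.34 CPM with random shRNA.

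**Figure D3:**
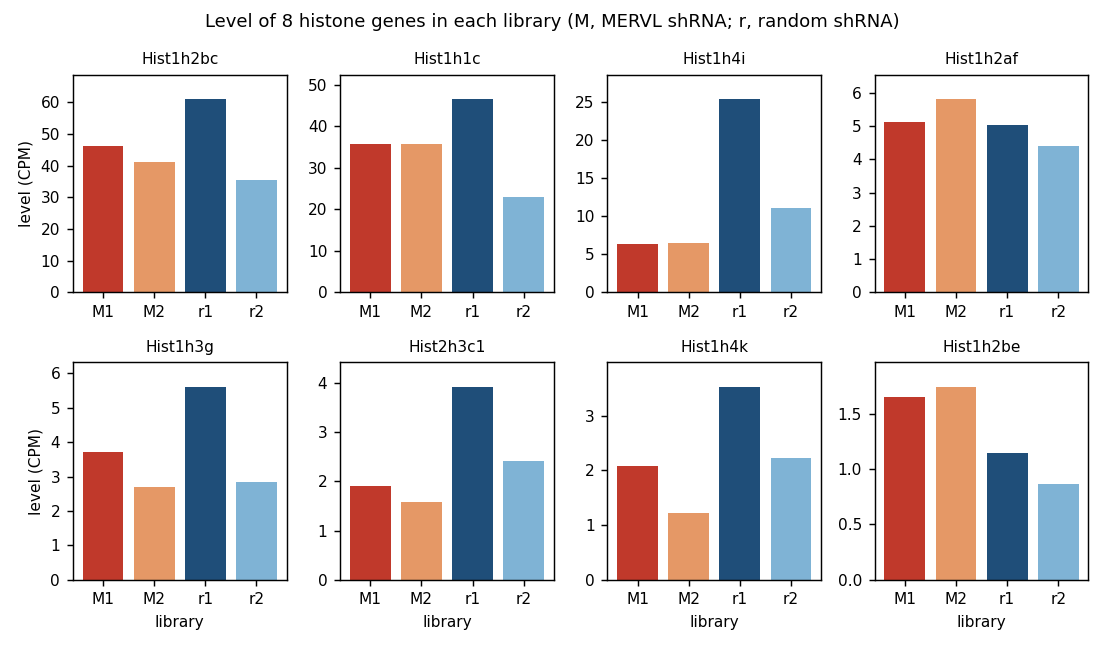
TMM-scaled CPM (y axis, linear from 0, scaled per gene) of 8 histone genes in each library (x axis; M1 and M2, MERVL shRNA replicates 1 and 2; r1 and r2, random shRNA replicates 1 and 2). Hist1h4i, Hist2h3c1 and Hist1h4k were lower and Hist1h2af and Hist1h2be higher in both MERVL shRNA libraries, while Hist1h2bc, Hist1h1c and Hist1h3g overlapped between groups.

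H3 genes had a median log2 fold change of -0.41, with 7 of 11 tested genes negative, 4 lower without overlap and 2 higher without overlap (21.8% and 23.0% of all genes). Their sum was 20.6 and 15.9 CPM with MERVL shRNA and 28.4 and 18.5 CPM with random shRNA, so that the groups overlapped. Hist1h3g, the most abundant, had 3.71 and 2.70 CPM with MERVL shRNA and 5.61 and 2.85 CPM with random shRNA, a log2 fold change of -0.41 ± 0.43. Hist1h3d had 2.48 and 1.80 CPM with MERVL shRNA and 4.88 and 2.66 CPM with random shRNA, a log2 fold change of -0.84 ± 0.44 (adjusted p = 0.461, edgeR) with no overlap. Hist1h3e had a positive fold change (0.40 ± 0.43), at 3.58 and 2.02 CPM with MERVL shRNA and 1.98 and 2.26 CPM with random shRNA, and overlapped.

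The lowest H3 fold change was that of Hist2h3c1, with 1.90 and 1.58 CPM with MERVL shRNA and 3.92 and 2.41 CPM with random shRNA (-0.89 ± 0.41, adjusted p = 0.407, edgeR). Every 50-base window of its transcript occurs in at least 1 other annotated gene, and an exon of another gene overlaps it; its near-copy Hist2h3c2 shares 63.5% of its own windows. The pair summed to 3.64 and 3.10 CPM with MERVL shRNA and 7.66 and 4.42 CPM with random shRNA, with no overlap and a log2 ratio of -0.84. The highest H3 fold change was that of Hist2h3b, 0.51 ± 0.49, with 0.730 and 0.722 CPM with MERVL shRNA and 0.447 and 0.605 CPM with random shRNA. The 4 genes for the protein form H3.1 (Hist1h3a, Hist1h3g, Hist1h3h and Hist1h3i) summed to 8.05 and 6.46 CPM with MERVL shRNA and 10.3 and 6.78 CPM with random shRNA. The other 8, which encode H3.2, summed to 12.6 and 9.39 CPM with MERVL shRNA and 18.1 and 11.7 CPM with random shRNA. The groups overlapped in either sum.

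H2A genes had 6 positive and 6 negative fold changes among 12 tested (median -0.03), and their sums nearly coincided on average (21.4 ± 0.393 CPM with MERVL shRNA and 21.3 ± 4.84 CPM with random shRNA, SD, n = 2 each). Hist1h2af, the most abundant H2A gene, had 5.11 and 5.80 CPM with MERVL shRNA and 5.03 and 4.39 CPM with random shRNA. The groups did not overlap, by a margin of under 0.1 CPM, and the log2 fold change was 0.21 ± 0.29. Hist1h2ae had 2.92 and 3.65 CPM with MERVL shRNA and 3.58 and 2.59 CPM with random shRNA. The lowest H2A fold change, -0.53 ± 0.52, was that of Hist1h2ah, at 2.05 and 1.59 CPM with MERVL shRNA and 3.67 and 1.54 CPM with random shRNA, and Hist3h2a on chromosome 11 was at -0.50 ± 0.47. The highest, 0.93 ± 0.51 (adjusted p = 0.483, edgeR), was that of Hist1h2ap, with 1.28 and 0.826 CPM with MERVL shRNA and 0.451 and 0.638 CPM with random shRNA, no overlap, and 93.1% shared windows. Together with its near-copy Hist1h2ao it stood at 1.77 and 1.89 CPM with MERVL shRNA and 1.07 and 1.33 CPM with random shRNA.

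H2B took 37.5% of the histone CPM, mostly through Hist1h2bc, whose annotated transcript is spliced and holds no stem-loop (chr13:23684199-23692908). Hist1h2bc shares 30.1% of its transcript windows with 100 other annotated genes in all, not all of them histone genes. It may thus share reads with these genes, and its level is uncertain. It had 46.3 and 41.3 CPM with MERVL shRNA and 61.0 and 35.4 CPM with random shRNA, a log2 fold change of -0.14 ± 0.26, with the MERVL shRNA libraries between the random shRNA libraries. Hist3h2ba had 2.51 and 2.41 CPM with MERVL shRNA and 3.51 and 2.35 CPM with random shRNA, again between them. Hist1h2bg had 3.13 and 2.01 CPM with MERVL shRNA and 2.59 and 1.91 CPM with random shRNA. Hist1h2be was the H2B gene with the highest fold change (0.76 ± 0.42, adjusted p = 0.494, edgeR). It had 1.65 and 1.74 CPM with MERVL shRNA and 1.15 and 0.866 CPM with random shRNA. Its exons overlap those of 2 other annotated genes, Gm11398 and the H1 gene Hist1h1e. Hist1h2be and Hist1h1e may thus draw on the same reads. Hist1h2br had the lowest H2B fold change, -0.72 ± 0.67. With Hist1h2bq, its near-copy, it summed to 4.72 and 2.91 CPM with MERVL shRNA and 8.998 and 2.57 CPM with random shRNA, a 3.51-fold gap within random shRNA that enclosed both MERVL shRNA values.

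H1 genes held 23.6% of the histone CPM, mostly through Hist1h1c, the most expressed H1 gene of the set (chr13:23738808-23740367). It had 35.6 and 35.8 CPM with MERVL shRNA and 46.5 and 22.9 CPM with random shRNA, a log2 fold change of 0.03 ± 0.31, and only 8.54% of its windows are shared. The MERVL shRNA libraries were close to each other and in the middle of the random shRNA pair. Leaving out random shRNA replicate 1 gave a log2 fold change of 0.65 (adjusted p = 2.17e-04, edgeR) and leaving out replicate 2 gave -0.37 (adjusted p = 0.0154), so 1 random shRNA library decides its direction. Hist1h1d (0.35 ± 0.43), Hist1h1e (0.44 ± 0.52) and Hist1h1a (-0.56 ± 0.54) were at 0.638 to 1.82 CPM, and in each the groups overlapped. Exons of Hist1h1e overlap those of the H2B gene Hist1h2be.

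Head-to-head H2A and H2B genes start close together and share their upstream region. There were 9 such pairs, with 175 to 301 bases between the starts. In 8 pairs the level of the H2B gene over that of the H2A gene, each in CPM per kb of exon, was 0.229 to 1.90, whereas Hist1h2bc stood 216-fold above Hist1h2ac. The windows that Hist1h2bc shares with other genes leave this gap uncertain. Hist1h2ac, not tested for its low counts, had 0.564 and 0.309 CPM with MERVL shRNA and 0.778 and 0.178 CPM with random shRNA. In the pair of Hist1h2ap with Hist1h2br the H2A partner had a log2 fold change of 0.93 ± 0.51 and the H2B partner one of -0.72 ± 0.67. In Hist1h2ao with Hist1h2bq they were 0.25 ± 0.55 and -0.49 ± 0.60. These pairs are near-copies of each other, and their genes share 88.7% to 97.3% of their windows with other genes. Their reads may have been split, so the opposite signs are uncertain and the pairs are not separate examples. In both H2B genes the groups overlapped. Hist1h2ae with Hist1h2bg had 0.07 and 0.17.

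Annotated transcripts differ in how far they run past the stem-loop. Of 38 genes with a stem-loop, 19 have at least 100 annotated bases after it, a length chosen after the values were seen, and these held 45.2% of the summed histone CPM, with Hist1h1c the highest of them. The 19 with a shorter stretch held 9.05%, and the 20 genes with no stem-loop in their annotated transcripts held 45.7%, mostly through Hist1h2bc. Per kb of exon the median levels of the first and the second kind were close, 1.33 and 1.49 CPM per kb, and that of the last kind was 1.87. The median log2 fold changes were -0.28, -0.22 and -0.29 in the same order, with 7 of 16, 3 of 11 and 6 of 16 tested genes positive. In the summed CPM of each kind the groups overlapped. Over all histone genes the median turned to 0.21 without random shRNA replicate 1, so a direction common to the kinds is not established.

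**Figure D4:**
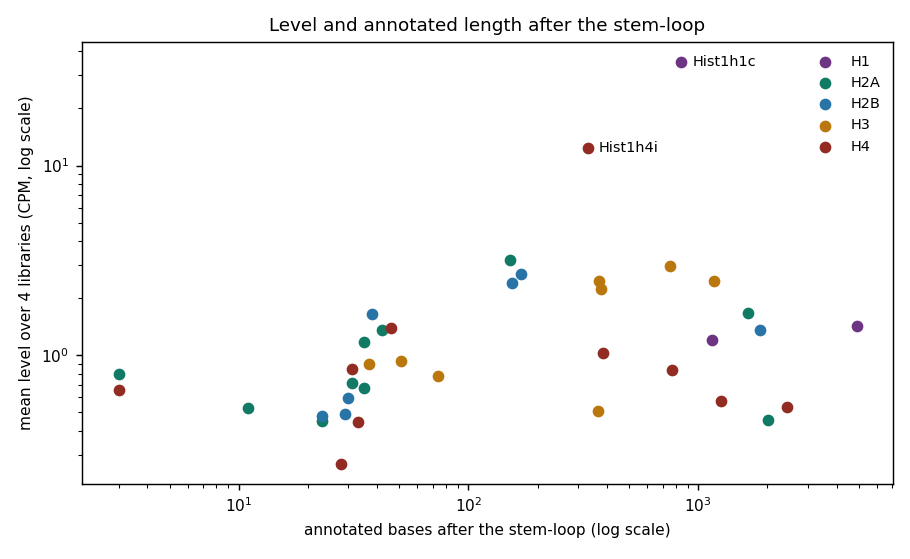
Mean CPM over the 4 libraries (y axis, log scale) against the annotated bases after the stem-loop (x axis, log scale) for the 38 histone genes with a stem-loop, coloured by class. Hist1h1c, with 840 bases after the stem-loop, and Hist1h4i, with 330, are the only points above 10 CPM; CPM is not scaled to transcript length here.

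By position on chromosome 13, the cluster of 25 genes that includes Hist1h2bc and Hist1h1c held 69.7% of the histone CPM, at 119.2 and 109.4 CPM with MERVL shRNA and 150.2 and 87.3 CPM with random shRNA. The cluster of 5 genes with Hist1h4i had a log2 ratio of -1.16, and its other 4 genes one of -0.18. The 7 genes on chromosome 3 summed to 8.20 and 8.54 CPM with MERVL shRNA and to 12.0 and 9.82 CPM with random shRNA, a log2 ratio of -0.38 with no overlap. Their mean sums were 8.37 and 10.9 CPM, and 5 of the 7 genes had a negative and 2 a positive fold change. The near-copies Hist2h3c1 and Hist2h3c2 alone had mean sums of 3.37 CPM with MERVL shRNA and 6.04 CPM with random shRNA. That gap is at least as wide as the gap of all 7 genes, so the ratio does not describe the other genes there.

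Genes that act on histone mRNA were described by lists chosen with earlier results known, and no gene of the lists on transcription, processing, decay, S phase, chaperones and replacement histones passed the edgeR test (0.00636% of all genes did) or DESeq2. At an unadjusted p under 0.05 in edgeR there were 1 gene each for transcription (Ccne2), processing (Ncbp1) and chaperones (Asf1b), all with negative fold changes, 0 for decay, 2 negative (Cdc6 and Rrm2) and 1 positive (Pola1) for S phase, and 1 positive (H1f0) for replacement histones. Over all genes 6.35% had such a p with a negative and 4.87% with a positive fold change. Slbp had 153.7 and 148.8 CPM with MERVL shRNA and 190.4 and 172.9 CPM with random shRNA, a log2 fold change of -0.26 ± 0.14 (adjusted p = 0.461) with no overlap. The 17 genes of histone mRNA 3′ processing had a median of -0.04, with 11 negative, and 5 lower and 1 higher without overlap (21.8% and 23.0% of all genes). Npat had 79.7 and 66.4 CPM with MERVL shRNA and 66.9 and 63.3 CPM with random shRNA, and overlapped. Ccne1, cyclin E1, had 160.8 and 174.2 CPM with MERVL shRNA and 267.4 and 183.6 CPM with random shRNA, a log2 fold change of -0.43 ± 0.20. The 9 genes of histone gene transcription tested had a median of -0.18, with 4 lower and 0 higher without overlap (21.8% and 23.0% of all genes). The 8 of histone mRNA decay, such as Eri1, which trims the histone mRNA end, had a median of 0.0073. None of these 8 was lower or higher without overlap, beside the same shares of all genes.

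Among 26 genes of S phase and DNA replication the median log2 fold change was -0.14, with 19 negative, and 11 lower and 4 higher without overlap, beside 21.8% and 23.0% of all genes. Mcm5, of the replicative helicase, had 582.6 and 655.7 CPM with MERVL shRNA and 700.0 and 581.0 CPM with random shRNA, and overlapped, as did Pcna, the sliding clamp. The 17 histone chaperones had a median of -0.08, with 14 negative, and 6 lower and 1 higher without overlap (21.8% and 23.0% of all genes). Npm1 had 2782 and 2581 CPM with MERVL shRNA and 2927 and 2981 CPM with random shRNA, a log2 fold change of -0.14 ± 0.17.

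Replacement and variant histones, most of whose mRNAs are polyadenylated and made outside S phase too, were far more abundant than the set in these libraries. The 17 genes summed to 3880 and 4158 CPM with MERVL shRNA and 3827 and 3485 CPM with random shRNA, with a median log2 fold change of -0.0095 over 12 tested. H2afz, which encodes H2A.Z, had 1365 and 1468 CPM with MERVL shRNA and 1202 and 1194 CPM with random shRNA (0.24 ± 0.16, no overlap). Over all libraries it averaged 736.1 CPM per kb of exon, against 39.8 for Hist1h2bc, a level left uncertain by shared windows. H3f3a, which encodes H3.3, had 586.1 and 653.4 CPM with MERVL shRNA and 474.8 and 535.8 CPM with random shRNA (0.29 ± 0.16, no overlap). H3f3b, which encodes the same protein, had 758.4 and 803.1 CPM with MERVL shRNA and 966.2 and 605.7 CPM with random shRNA, and H2afx had 475.7 and 505.4 CPM with MERVL shRNA and 601.0 and 386.1 CPM with random shRNA. In both genes the random shRNA libraries enclosed the MERVL shRNA libraries, at log2 fold changes of -0.0098 and -0.0092.

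Non-polyadenylated noncoding RNAs, which like stem-loop histone mRNAs lack a poly(A) tail, summed to 54.9 and 33.0 CPM with MERVL shRNA and to 27.6 and 42.0 CPM with random shRNA over 12 genes. The median log2 fold change of the 6 tested was 0.58, with 4 positive and 2 negative. The groups overlapped in this sum, and random shRNA replicate 1, the highest library in histone CPM, was the lowest in it. Rn7sk led the sum, with 26.1 and 10.7 CPM with MERVL shRNA and 7.01 and 19.6 CPM with random shRNA. The 2 negative genes, Terc and Rpph1, were instead highest in random shRNA replicate 1. Terc had 1.89 and 0.568 CPM with MERVL shRNA and 7.02 and 1.93 CPM with random shRNA. The part of mRNA selection in the histone levels was not tested.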

How the data were processed

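RNA was measured in 2 MERVL shRNA and 2 random shRNA libraries, grouped by sample title. The authors deposited estimated counts for 45773 features (43496 Ensembl genes, 2277 MERVL copies) and a table of normalized scores. Trim Galore, HISAT2 and the build mm10 are named per the submitters' processing notes. The counting program, its use of strand and the making of the deposited scores are not given in the sources. In each library 19.1% to 20.8% of the values were fractional, so reads that fit several genes may have been split and values of near-identical histone genes are uncertain. Of the 58 genes, 13 had whole counts in every library, 7 shared under 10% and 32 over 50% of their 50-base transcript windows with another gene, and 22 overlapped another gene's exon; without strand, reads of such pairs cannot be told apart.

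Counts were rounded and tested with the edgeR 4.0.16 quasi-likelihood F test (R 4.3.3, TMM, filterByExpr, 2-sided), fitted on 16353 features (15735 genes, 618 MERVL copies) and adjusted by Benjamini-Hochberg over all of them, with a threshold of 0.05. Standard errors (SE) derive from the F statistic. CPM are TMM-scaled. The test was checked on simulated counts. Depth was 11628887 to 16067854 estimated counts; at a mean near 1 CPM a gene rests on few reads. Alternatives were other scalings and filters, DESeq2 1.42.0, limma-voom and limma 3.58.1 on log2(score + 1), a replicate block and leaving out each library. Positions came from GENCODE M21 (GRCm38), and promoters from RefSeq.

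The members and the gene lists were chosen with earlier results of these data known. Named per class were the 4 tested genes with the highest mean CPM and those with the highest and lowest fold change; per list, up to 4 genes by mean CPM, and Slbp, Npat, H2afx, H2afz, H3f3a and H3f3b in any case; and 5 genes by likeness of pattern. Genes named for their sequence, as a near-copy, for their role (Eri1) or for an unadjusted p were chosen after values were seen. No statistic was computed on a column outside the 4 libraries.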

Additional observations from a re-analysis of the deposited data

How the results depend on the processing

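In edgeR with the other scalings or the filter of at least 1 CPM in 2 libraries, no histone gene was called, as in the main setting, and limma-voom called no gene in either direction over the 15735 tested, of which 1730 had an unadjusted p under 0.05. Histone genes called lower were 1 with no filter, 1 with DESeq2 and 1 with the replicate block, Hist1h4i each time, and limma on the deposited scores called 5 higher and 4 lower. Among all genes, 270 were called higher and 467 lower where no filter was applied (2.86% of 25742). DESeq2 called 67 and 101 (1.16% of 14461), and limma on the scores called 1660 and 1733 (19.9% of 17078). With the replicate block, 110 of 15735 genes were called higher and 252 lower. Same-numbered libraries deviated together with an r of 0.0395 over all genes tested and 0.32 over the 43 histone genes tested. No label says that a number marks a shared culture or day, so the libraries were not treated as paired, and Hist1h4i (adjusted p = 0.02) was the only histone call that the block changed. The scores bring the random shRNA pair together: over genes in both tables its median gap was 0.0293 on log2(score + 1), against 0.28 on log2(CPM + 1).

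Leaving out 1 library moved most values. Histone calls ranged from 0 to 2 higher and from 0 to 14 lower, and calls over all genes from 2 to 2557 higher and from 0 to 2243 lower; the lone library of a group is then assumed to vary like the other group. The median log2 fold change ranged over -0.44 to 0.21 for all histone genes, 0.10 to 0.57 in H1, -0.35 to 0.28 in H2A, -0.33 to 0.50 in H2B, -0.84 to 0.10 in H3, -1.11 to -0.50 in H4. The log2 ratio of the summed CPM ranged over -0.53 to 0.24 for all, -0.30 to 0.61 in H1, -0.19 to 0.26 in H2A, -0.43 to 0.34 in H2B, -0.62 to -0.015 in H3, -1.47 to -0.47 in H4. The negative direction of the H4 median and sum was kept in each of these. That of the H3 sum was kept too, while the H3 median was not always negative. The H1 median was 0.37 with no filter and 0.36 with DESeq2, the H2A median -0.16 with no filter and the H3 median -0.66 with the CPM filter. Of the named genes, these changed sign when a library was left out, over the ranges Hist1h1a -0.94 to 0.043, Hist1h1c -0.37 to 0.65, Hist1h1e -0.052 to 1.11, Hist1h2ae -0.12 to 0.32, Hist1h2ah -0.999 to 0.28, Hist1h2bc -0.46 to 0.31, Hist1h2bg -0.17 to 0.48, Hist1h2br -1.37 to 0.66, Hist1h3e -0.064 to 0.77, Hist1h3g -0.79 to 0.18, Hist1h4a -1.23 to 0.42, Hist1h4h -1.16 to 0.21, Hist2h4 -0.98 to 0.19, Hist3h2ba -0.49 to 0.075, H2afx -0.28 to 0.35, H3f3b -0.29 to 0.37. Hist1h1c was also at -0.020 with library totals. H2afx and H3f3b, near 0, turned positive with no filter (0.010 and 0.0094), DESeq2 (0.0048 and 0.0041), limma-voom (0.031 and 0.035), the scores (0.050 and 0.055) and the replicate block (0.025 and 0.028). The causes were not tested. No scaling moved the median of all genes by more than 0.057.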

Other observations

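H1f0, the replacement linker histone gene, was outside the rule for named genes and was picked after its values were seen. It had 155.6 and 162.3 CPM with MERVL shRNA and 86.5 and 116.1 CPM with random shRNA, a log2 fold change of 0.65 ± 0.18 (adjusted p = 0.329, edgeR), higher in both MERVL shRNA libraries. Over the alternatives its adjusted p ran from 7.62e-11 without random shRNA replicate 2 to 1 without MERVL shRNA replicate 2. Hist1h1c, the H1 gene of the set with the highest CPM in these libraries, overlapped between the groups.

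The 5 genes outside the set whose level over the 4 libraries ran most like the summed histone CPM were Celsr2, Btd, Cstf3, Gm14139 and Cdk11b, each with a Pearson r above 0.999 on log2(CPM + 1). Cstf3, a cleavage stimulation factor subunit, had 100.5 and 98.8 CPM with MERVL shRNA and 107.0 and 96.4 CPM with random shRNA. With 4 libraries that share depth and scaling, 107 of 11076 genes had an r above 0.99, and the likeness is a description only.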
